A study of Mus musculus with 36 samples.

Results

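The effect of the *Adipoq*-CCL19 knock-in on epididymal white adipose tissue (eWAT) was examined in ND-fed mice with ligatures, by comparing the 3 CCL19-KI libraries with the 3 WT libraries of that condition, 6 of the 36 libraries sequenced. Membership was taken from the labels alone, which give genotype, diet (normal diet, ND, for 10 weeks), ligature (2 weeks), strain (C57BL/6) and a replicate number, and the methods of the study add that the mice were male and that eWAT was taken from each ligatured mouse, so the 3 libraries of a group are treated as 3 mice. In CCL19-KI mice, *Ccl19* had been placed into the *Adipoq* locus by CRISPR/Cas9 while the endogenous *Adipoq* gene was kept, so the transgene is under the control of a gene that is active in adipocytes, and the line was kept by mating homozygous animals. WT mice came from separate C57BL/6 matings, which means that the knock-in and any other difference between the lines cannot be told apart here. Both groups received a silk thread around the upper second molars at 14 weeks of age, after 8 weeks of feeding, and eWAT was taken at 16 weeks after its lymph nodes had been removed. The remaining 30 libraries, from mice fed a 40% or 60% HFD (high-fat diet) or left without ligature, are used only where the genotype effect is set beside that in other conditions.

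CCL19 is a chemokine that binds CCR7 and guides T cells and mature dendritic cells into lymphoid tissue. White adipocytes take up fatty acids, store them as triglyceride in lipid droplets coated by perilipins, and release them by lipolysis. Their identity is kept by PPARγ and C/EBPα, and their mitochondria oxidise fatty acids and branched-chain amino acids. They also secrete adiponectin, the product of *Adipoq*.

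Because the knock-in lies at *Adipoq*, the reference sequence around its start and that of *Ccl19* are shown, in windows of 300 bases that reach from upstream of each RefSeq start into the transcript, in GRCm38.p6. Capitals mark CCAAT, the box bound by NF-Y and found near many starts, read on either strand (ATTGG on the printed strand when the match lies on the other). The *Adipoq* window is chr16:23146286-23146585 on the plus strand and the *Ccl19* window is chr4:42756316-42756615 on the minus strand.
Adipoq: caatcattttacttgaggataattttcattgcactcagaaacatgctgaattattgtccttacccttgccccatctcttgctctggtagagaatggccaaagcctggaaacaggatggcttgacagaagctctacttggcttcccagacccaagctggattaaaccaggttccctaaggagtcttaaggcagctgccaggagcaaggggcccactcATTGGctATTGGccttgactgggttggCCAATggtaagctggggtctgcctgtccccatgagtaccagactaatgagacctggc
Ccl19: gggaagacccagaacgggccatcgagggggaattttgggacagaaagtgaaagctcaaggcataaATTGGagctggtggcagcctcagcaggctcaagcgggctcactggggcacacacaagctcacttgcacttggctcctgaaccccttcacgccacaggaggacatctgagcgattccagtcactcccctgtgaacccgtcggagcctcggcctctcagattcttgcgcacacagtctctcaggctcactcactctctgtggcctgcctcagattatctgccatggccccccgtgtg
The *Adipoq* window held 3 such matches and the *Ccl19* window held 1. CCAAT occurs in 37.4% of the 32851 windows of this length, so its presence is a description and not a site of binding. AGGTCA, the core motif of many nuclear receptors, and TATAAA were also searched on both strands, occur in 16.3% and 13.6% of all windows, and are not in either of these.

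The knocked-in gene was first checked in every library. *Ccl19* (ENSMUSG00000071005) was 0.690, 0.507 and 2.79 normalized CPM in WT and 28.8, 14.9 and 21.1 in CCL19-KI mice, and all CCL19-KI values lay above all WT values (log2 fold change 3.36 ± 0.41 (SE), adjusted p = 3.84e-04, limma; exact two-sided permutation p = 0.1, the smallest that 3 mice against 3 allow). *Gm2564* (ENSMUSG00000091938), a neighbouring copy of *Ccl19* on chromosome 4, had no reads in the WT mice and 50.7, 28.6 and 54.2 normalized CPM in the CCL19-KI mice, at least 226-fold higher than the value of 3 reads (0.197 normalized CPM on average over the WT libraries). *Ccl19-ps3*, a pseudogene of the same family, also had no reads in WT mice and 1.17, 3.93 and 3.06 normalized CPM in CCL19-KI mice, at least 13.8-fold higher than that limit, with an adjusted p of 0.174. How reads of these near-identical copies were divided is uncertain, so the 3 values are best read together. *Adipoq* (ENSMUSG00000022878) was 3230, 3021 and 2782 normalized CPM in WT and 805, 470.1 and 759 in CCL19-KI mice. It was lower in every CCL19-KI mouse, and its mean was 0.225 times that of WT mice (log2 fold change -2.19 ± 0.37 (SE), adjusted p = 0.00559; exact p = 0.1). With each of the 6 mice left out in turn, its log2 fold change was between -2.33 and -1.94, and its adjusted p was above 0.05 in 1 of the 6 fits (0.0541, without CCL19-KI replicate 2).

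**Figure D1:**
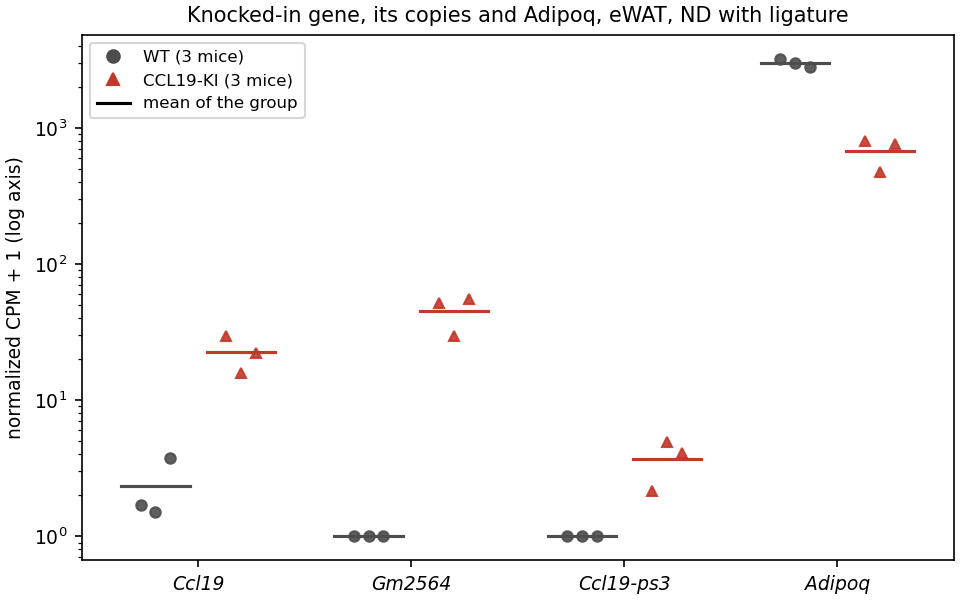
Normalized CPM plus 1 (log axis) of *Ccl19*, its copies *Gm2564* and *Ccl19-ps3*, and *Adipoq* in each ND-fed, ligatured mouse; circles are WT mice, triangles CCL19-KI mice, and lines the group means. The 3 CCL19-KI mice lie above the 3 WT mice for the first 3 genes and below them for *Adipoq*.

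The libraries held 11962228 to 20258438 reads in WT and 13025945 to 17411941 in CCL19-KI mice, and counting error sets a limit only for genes of a few reads. RNA of other tissues differed among them. Hepatocyte genes (24 tested, such as *Alb*) summed to 5030 to 20200 normalized CPM in WT and 1760 to 13200 in CCL19-KI mice. Genes of the epididymal epithelium (9 of 38 tested) summed to 0.758 to 3.71 in WT mice and to 2880, 1270 and 25.7 in CCL19-KI replicates 1, 2 and 3, and *Spink11* of that list had no reads in any WT mouse. Visceral smooth muscle genes summed to 1660 to 2400 in WT mice and to 12200, 8360 and 2060 in those replicates, and skeletal muscle genes to 67.6 to 165 against 819, 235 and 259. Replicate 3 thus had the least epididymal and smooth muscle RNA of the CCL19-KI group, and it is named below wherever a difference rests on replicates 1 and 2. Defining genes of the adipocyte were at high levels in every library (*Fabp4* at 3197 or more normalized CPM). The part of the RNA of other tissues in the results below was not tested, beyond the fits with these scores as covariates or with fewer libraries. The fit named below by the 3 libraries with least hepatocyte RNA sets 1 WT mouse (replicate 3) against CCL19-KI replicates 2 and 3. Mean log2(normalized CPM + 1) of the hepatocyte genes was 5.63 in that WT mouse and 1.02 and 1.17 in those CCL19-KI mice. Hepatocyte RNA thus still differed in that fit. In bulk RNA, fewer cells of a type and less RNA per cell cannot be told apart. *Ccl19* and *Gm2564* followed the genotype label in all 6 libraries, but *Gm16867*, *Naip6* and *Srp54b*, picked after their values were seen because they separate the genotypes in the HFD-fed ligatured mice, were near the CCL19-KI level in WT replicates 1 and 2. For *Naip6* the values were 3.59, 4.56 and 0.309 normalized CPM in WT and 6.88, 6.26 and 7.11 in CCL19-KI mice.

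**Figure D2:**
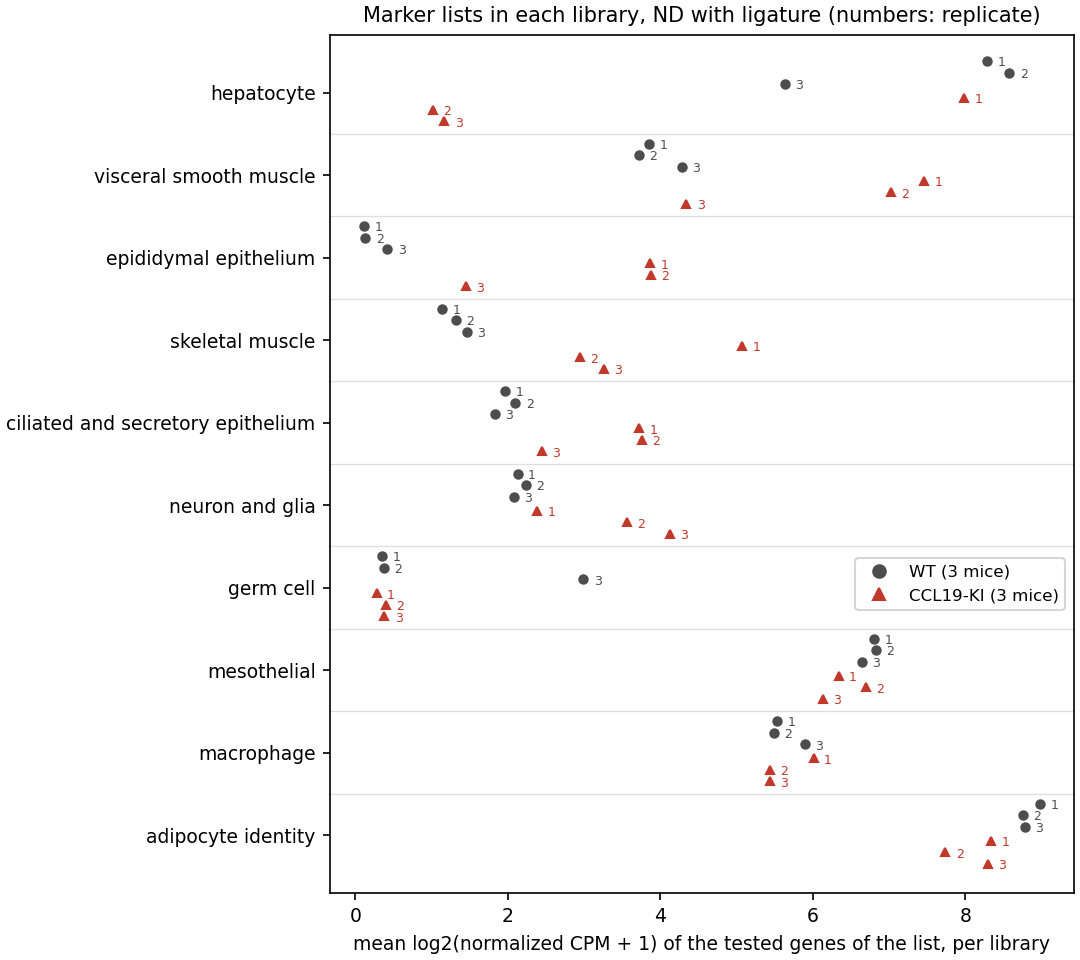
Mean log2(normalized CPM + 1) of the tested genes of each marker list in each library; circles are WT and triangles CCL19-KI mice, with the replicate number beside each. Hepatocyte genes span 1.02 to 8.58, epididymal genes are high in CCL19-KI replicates 1 and 2, and macrophage genes lie between 5.44 and 5.90 in 5 libraries and at 6.01 in the other.

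Differences between the genotypes were estimated by limma for 16653 genes, on the scale log2(normalized CPM + 1), in 1 fit over the 18 ligatured libraries. Of these, 370 passed an adjusted p of 0.05 (2.22% of genes tested), 307 higher and 63 lower in CCL19-KI mice (1.84% and 0.378%). The DEG criteria of the study, an unadjusted p no higher than 0.05 with a group ratio from 1.5 upward or from 0.67 downward, called 1530 genes (9.19%), 1110 higher (6.67%) and 420 lower (2.52%). The groups did not overlap at all in 1424 genes that were higher (8.55%) and 1680 that were lower (10.1%), and the median log2 fold change of all genes was -0.03. Among the 63 falls, 62 had no overlap, and none is on a list of another tissue, while 22 of the 307 rises are. Those lists hold chosen markers only. All 24 hepatocyte genes were negative in sign and 19 met the DEG criteria on the lower side, yet none passed the adjusted p. The part of the RNA of other tissues in the falls was not tested. All 63 falls kept their direction with an unadjusted p of at most 0.05 when each of the 6 mice was left out in turn, but only *Dynlt1b*, *Pmvk* and *Zfp771* also kept an adjusted p below 0.05 in all 6 fits. Of the 307 rises, 245 and 61 did so. In a fit of the 6 libraries alone, 2 of the 63 falls and 45 of the 307 rises kept an adjusted p below 0.05. With the hepatocyte score as a covariate 11 and 213 did, and with the epididymal score 1 and 39. With the epididymal score, 32 falls and 194 rises kept their direction with an unadjusted p of at most 0.05. The number of genes with an adjusted p below 0.05 was 662 without CCL19-KI replicate 1, 84 without replicate 2 and 483 without replicate 3, and 128, 141 and 758 without WT replicates 1, 2 and 3. Single calls are therefore given below with their values in each mouse.

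Genes that define the adipocyte were lower in ligatured CCL19-KI mice. All 22 tested genes of adipocyte identity had a negative log2 fold change (median -0.70), 14 did not overlap between the groups, and 12 met the DEG criteria on the lower side (54.5%, against 2.52% of all genes) and none on the higher. Not one of them passed the adjusted p. *Pparg*, the master regulator of adipocyte differentiation, was 294, 210.4 and 136 normalized CPM in WT and 135, 52.2 and 99.8 in CCL19-KI mice (log2 fold change -1.19 ± 0.32 (SE), adjusted p = 0.0661). *Cebpa*, which acts with it, was 308, 241 and 337 normalized CPM in WT and 212, 119.7 and 188 in CCL19-KI mice (log2 fold change -0.79 ± 0.21 (SE), adjusted p = 0.0682). CCL19-KI replicate 2 was the lowest library for both, and the highest CCL19-KI mouse was below the lowest WT mouse. *Cebpb*, an earlier factor of the same family, had a log2 fold change of -1.19, and *Klb*, the co-receptor of FGF21, of -1.34. *Fabp4*, the fatty acid carrier of adipocytes, was 7227, 7767 and 6803 normalized CPM in WT and 4237, 3197 and 6001 in CCL19-KI mice (log2 fold change -0.74). The lipid uptake genes *Lpl* and *Cd36* were lower by 0.77 and 0.59 on the log2 scale, *Acsl1*, which activates fatty acids, by 0.95, and *Pck1*, which supplies glycerol phosphate, by 1.25. By contrast, *Plin1*, the main perilipin of the adipocyte droplet, was 764, 687 and 1148 normalized CPM in WT and 652, 599 and 884 in CCL19-KI mice, with overlapping groups (log2 fold change -0.27, adjusted p = 0.731), and *Slc2a4*, the insulin-responsive glucose transporter, and *Adrb3*, the β3-adrenergic receptor, had log2 fold changes of -0.44 and -0.19 and did not meet the DEG criteria. Without CCL19-KI replicates 1 and 2 the median of the list was -0.52 and 4 genes met the DEG criteria on the lower side. In only the 3 libraries with least hepatocyte RNA, with 1 WT mouse among them, the median was -0.77. With the epididymal score as a covariate the median was -0.44 and no gene met the DEG criteria. Leaving out CCL19-KI replicate 2 reduced the 12 genes to 6, and leaving out WT replicate 1 to 8.

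Of the 15 adipokines tested, *Adipoq* alone passed the adjusted p. *Rbp4*, which encodes the retinol carrier, also met the DEG criteria on the lower side (log2 fold change -1.17). *Lep*, the leptin gene, was 247, 411 and 523 normalized CPM in WT and 195, 379 and 569 in CCL19-KI mice, with overlapping groups (log2 fold change -0.11, adjusted p = 0.935). *Cfd*, the gene of adipsin, and *Retn*, that of resistin, did not overlap between the groups and had log2 fold changes of -0.96 and -0.66 without meeting the DEG criteria. On the higher side, *Lcn2*, the gene of lipocalin 2, was 11.2, 8.97 and 11.8 normalized CPM in WT and 26.2, 24.8 and 18.8 in CCL19-KI mice and met the DEG criteria (log2 fold change 1.05). *Sfrp5*, a secreted Wnt inhibitor, was 3.45, 17.2 and 8.20 normalized CPM in WT and 17.5, 22.5 and 32.0 in CCL19-KI mice (log2 fold change 1.42).

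Triglyceride synthesis and lipolysis genes were mostly lower, and single steps passed the adjusted p. *Gpam* (ENSMUSG00000024978), the mitochondrial acyltransferase that starts glycerolipid synthesis, was 624, 454 and 397 normalized CPM in WT and 236, 150.4 and 221 in CCL19-KI mice (log2 fold change -1.27 ± 0.31 (SE), adjusted p = 0.0470). Every CCL19-KI mouse was below the lowest WT mouse. *Acacb* and *Dgat1*, which make malonyl-CoA at the mitochondrion and the last bond of triglyceride, met the DEG criteria with log2 fold changes of -1.47 and -0.67, as did *Lpin1* with -1.10 (0.00 in the 3 libraries with least hepatocyte RNA), whereas *Fasn*, the fatty acid synthase gene, was 413, 460.0 and 2797 normalized CPM in WT and 1073, 1164 and 719 in CCL19-KI mice (log2 fold change 0.25, and -1.61 in those 3 libraries). Over the 23 genes of fatty acid and triglyceride synthesis, 4 met the DEG criteria on the lower side, 9 had lower values in all CCL19-KI mice, and the median was -0.42. Without WT replicate 3 that median was -0.17, with 4 DEGs lower and 3 higher, and it was -0.28 without CCL19-KI replicate 2. In the 22 genes of lipolysis and the lipid droplet, 10 met the DEG criteria on the lower side and none on the higher side (median -0.59). *Pnpla8*, a phospholipase of mitochondria and peroxisomes, was 273, 239 and 241 normalized CPM in WT and 175, 143 and 173 in CCL19-KI mice (log2 fold change -0.62 ± 0.14 (SE), adjusted p = 0.0315). *Pnpla2*, the gene of adipose triglyceride lipase, was 2313, 1834 and 1369 normalized CPM in WT and 1177, 608 and 1039 in CCL19-KI mice (log2 fold change -0.99, adjusted p = 0.134). Its activator *Abhd5* had -0.68, the hormone-sensitive lipase gene *Lipe* -0.74, the droplet protein genes *Cidec* and *Fitm2* -1.02 and -0.96, and *Pde3b*, which ends the cyclic AMP signal, -0.86, all as log2 fold changes past the DEG criteria. The count of 10 was 3 without CCL19-KI replicate 2 and 6 without WT replicate 1, and the median was -0.42 without CCL19-KI replicates 1 and 2.

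Hormone signalling to the adipocyte was lower at single genes. *Mrap*, which encodes the accessory protein of the melanocortin receptor MC2R, was 102, 89.6 and 82.8 normalized CPM in WT and 48.0, 35.1 and 57.4 in CCL19-KI mice (log2 fold change -0.98 ± 0.19 (SE), adjusted p = 0.0149). The highest CCL19-KI mouse was below the lowest WT mouse. Of the 21 genes of melanocortin and adrenergic signalling, *Mc5r* and *Pde3b* also met the DEG criteria on the lower side, and none on the higher side, though *Mc5r* had a log2 fold change of 0.41 in the 3 libraries with least hepatocyte RNA. That list, which holds *Mrap*, was not among those fixed at the start, so its counts are descriptions. Insulin signalling and glucose uptake had 23 of 24 genes with a negative sign (median -0.24), of which *Pde3b*, *Foxo1* and *Hk2* met the DEG criteria. The insulin receptor gene *Insr* had a log2 fold change of -0.55 and *Irs2* of -0.54, and neither met them. The count of 3 was 1 without WT replicate 1, 2 without CCL19-KI replicate 2 and 5 without WT replicate 3, and the median was -0.14 without CCL19-KI replicate 2. *Osbpl11*, of the oxysterol-binding protein family, was 228, 188 and 145 normalized CPM in WT and 96.5, 70.0 and 94.1 in CCL19-KI mice and fell, with no overlap (log2 fold change -1.09 ± 0.20 (SE), adjusted p = 0.0114).

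**Figure D3:**
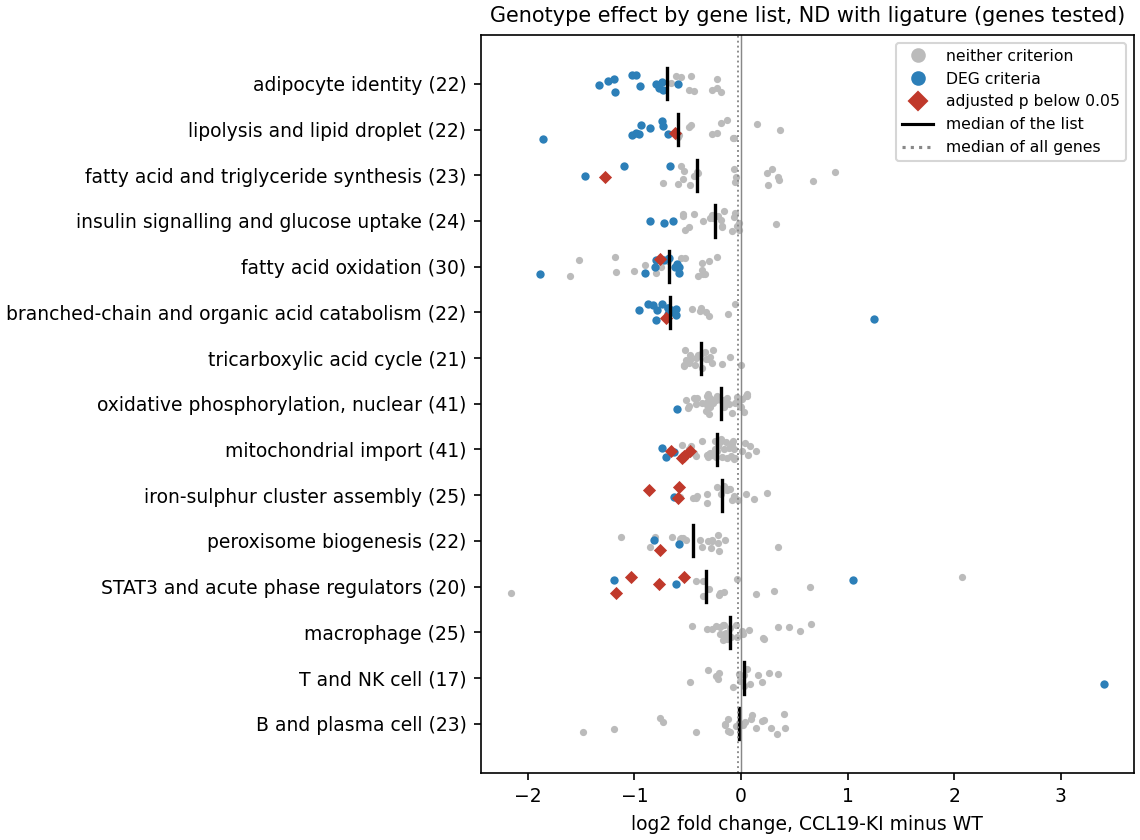
Log2 fold change (CCL19-KI minus WT) of each tested gene by list, with the number of genes tested in brackets; grey circles met neither criterion, blue circles the DEG criteria, red diamonds an adjusted p below 0.05. Black bars are the medians, from -0.70 for adipocyte identity to 0.02 for T and NK cell genes, and the dotted line is the median of all genes, -0.03.

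Mitochondrial fuel oxidation was lower as a group. All 30 genes of fatty acid oxidation had a negative sign (median -0.68), 13 did not overlap and 11 met the DEG criteria. *Etfa*, a subunit of the flavoprotein that passes electrons from acyl-CoA dehydrogenases, was 225, 208 and 193 normalized CPM in WT and 131, 98.8 and 142 in CCL19-KI mice and passed the adjusted p (log2 fold change -0.76 ± 0.16 (SE), adjusted p = 0.0247). *Cpt2*, which turns acylcarnitines back into acyl-CoA inside the mitochondrion, was 85.2, 104 and 83.4 normalized CPM in WT and 63.7, 35.2 and 48.9 in CCL19-KI mice (log2 fold change -0.90, adjusted p = 0.143). The dehydrogenase genes *Acadl* and *Acadm* and both trifunctional protein genes, *Hadha* and *Hadhb*, were lower by 0.72, 0.60, 0.59 and 0.58 on the log2 scale, past the DEG criteria. *Ehhadh*, of the peroxisomal pathway and abundant in hepatocytes, was 214, 328 and 60.0 normalized CPM in WT and 122, 22.9 and 28.2 in CCL19-KI mice, highest in the pair of WT mice with most hepatocyte RNA. With the hepatocyte score as a covariate, the median of the list was -0.11 and 2 genes met the DEG criteria, and in the 3 libraries with least hepatocyte RNA it was -0.53 with 4 such genes. Without CCL19-KI replicate 2, 2 genes met them, without WT replicate 2, 5, and without WT replicate 1, 6.

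Catabolism of branched-chain amino acids and organic acids held the highest share of DEGs among the metabolic lists described here, with 14 of 22 genes lower and 1 higher (median -0.67). *Pccb*, a subunit of propionyl-CoA carboxylase, was 144, 148 and 149.7 normalized CPM in WT and 108, 72.8 and 93.1 in CCL19-KI mice (log2 fold change -0.70 ± 0.16 (SE), adjusted p = 0.0402). The WT mice lay within a narrow range, and every CCL19-KI mouse was below it. *Bcat2*, the mitochondrial aminotransferase that opens the pathway, was 196, 148 and 151 normalized CPM in WT and 91.4, 67.7 and 95.7 in CCL19-KI mice (log2 fold change -0.95, adjusted p = 0.0536). The branched-chain dehydrogenase genes *Bckdha*, *Bckdhb* and *Dbt* were lower by 0.79, 0.69 and 0.87 on the log2 scale, and *Hibch*, *Ivd* and *Mut* further down by 0.83, 0.69 and 0.67. *Bcat1*, the cytosolic isoenzyme, was the 1 gene on the higher side, with 0.345, 1.01 and 3.79 normalized CPM in WT and 5.29, 4.91 and 3.68 in CCL19-KI mice (log2 fold change 1.25). The count of 14 was 11 in the 3 libraries with least hepatocyte RNA, 7 without CCL19-KI replicates 1 and 2, 4 with the hepatocyte score as a covariate and 0 with the epididymal score, where the median was -0.21. It was 6 without CCL19-KI replicate 2.

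The tricarboxylic acid cycle and the respiratory chain moved less. In 20 of 21 cycle genes the sign was negative, and 12 did not overlap, but none met the DEG criteria (median -0.38), against 3 without CCL19-KI replicate 1. Among 41 nuclear genes of oxidative phosphorylation, 36 were negative in sign with a median of -0.19, and *Uqcrfs1*, the Rieske iron-sulphur subunit of complex III, alone met the DEG criteria (log2 fold change -0.60). With the hepatocyte score as a covariate that median was 0.02.

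Mitochondrial assembly genes contributed 9 of the 63 falls. Iron-sulphur clusters are built on a scaffold and handed to enzymes of the cycle and the respiratory chain. The scaffold gene *Iscu* was 100.2, 115 and 111 normalized CPM in WT and 75.0, 76.4 and 65.6 in CCL19-KI mice (log2 fold change -0.58 ± 0.12 (SE), adjusted p = 0.0228). *Glrx5*, which passes clusters on, was 68.6, 75.1 and 42.6 normalized CPM in WT and 35.6, 24.4 and 40.1 in CCL19-KI mice (log2 fold change -0.86 ± 0.21 (SE), adjusted p = 0.0441), and *Glrx3*, a cytosolic glutaredoxin of iron-sulphur trafficking, had a log2 fold change of -0.59 (adjusted p = 0.0478). None of the 3 overlapped between the groups, and of the 25 genes of the list these 3 fell and none rose (median -0.17). *Nfs1*, the cysteine desulphurase gene, had a log2 fold change of -0.46 and met neither criterion. In protein import, 4 of 41 genes passed the adjusted p, all lower: *Gfer*, an oxidase of the intermembrane space (-0.66), *Mtch2*, an outer membrane insertase (-0.55), *Pitrm1*, a peptidase that clears presequences (-0.53), and *Timm23*, the channel of the inner membrane (-0.48), as log2 fold changes. *Timm23* was 102, 97.7 and 89.1 normalized CPM in WT and 74.0, 59.1 and 73.6 in CCL19-KI mice. In 17 genes of this list, these 4 included, all CCL19-KI mice were below all WT mice. Of 79 genes of the mitochondrial ribosome and its assembly, *Mrps30* and *Malsu1* fell (-0.61 and -0.53) and 68 were negative in sign (median -0.17). These 3 lists were drawn up after the falls had been seen, so their counts are descriptions. Medians without CCL19-KI replicates 1 and 2 were -0.25 for iron-sulphur genes and -0.34 for import genes, and with the hepatocyte score as a covariate -0.03 and -0.08. None of these falls passed the adjusted p without CCL19-KI replicate 2 or without WT replicate 1 or 2, each left out alone.

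Of 22 genes of peroxisome biogenesis, 21 were negative in sign and 3 met the DEG criteria, all lower (median -0.45). This list, too, was not among those fixed at the start, so its counts are descriptions. *Pex16*, which starts the peroxisomal membrane, was 70.7, 68.7 and 54.5 normalized CPM in WT and 42.2, 32.0 and 39.2 in CCL19-KI mice (log2 fold change -0.76 ± 0.17 (SE), adjusted p = 0.0315), and the receptor genes *Pex5* and *Pex13* met the DEG criteria (log2 fold changes -0.82 and -0.58). The count of 3 was 8 without WT replicate 3, 7 without CCL19-KI replicate 1, and 2 without CCL19-KI replicate 2 or WT replicate 1. Hepatocyte RNA differed in the same direction, and with that score as a covariate its median was 0.01, and in the 3 libraries with least hepatocyte RNA -0.32.

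**Figure D4:**
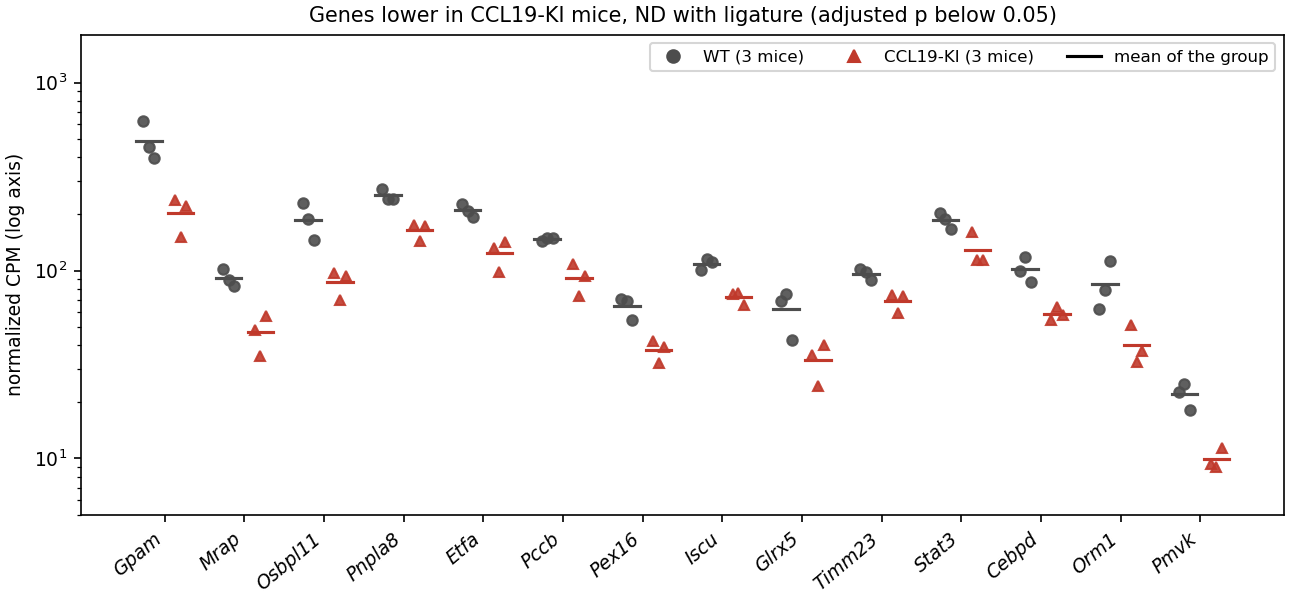
Normalized CPM (log axis) of 14 genes with an adjusted p below 0.05 in each ND-fed, ligatured mouse; circles are WT mice, triangles CCL19-KI mice and lines the group means. In every gene shown the 3 CCL19-KI mice lie below the 3 WT mice.

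Enzymes of lipid mediators and of foreign compounds included 1 of the larger falls. *Ephx2*, the soluble epoxide hydrolase gene, was 514, 617 and 356 normalized CPM in WT and 302, 91.4 and 146 in CCL19-KI mice (log2 fold change -1.60 ± 0.37 (SE), adjusted p = 0.0403). Its values fell into separate ranges, and CCL19-KI replicate 1, the library of that group with most hepatocyte RNA, was the highest of the 3. In the 3 libraries with least hepatocyte RNA its log2 fold change was -1.61, but with the hepatocyte score as a covariate it was -0.85. The adjusted p was below 0.05 in 2 of the 6 fits that left out 1 mouse (highest 0.247). *Pon3*, a lactonase, and *Lta4h*, which makes leukotriene B4, fell with log2 fold changes of -0.84 and -0.59. *Alox12*, the platelet-type lipoxygenase, rose from 0.276, 0.304 and 0.387 normalized CPM in WT to 3.02, 3.19 and 2.21 in CCL19-KI mice (log2 fold change 1.52 ± 0.19 (SE), adjusted p = 3.84e-04). *Ptgs2*, the inducible cyclooxygenase, met the DEG criteria on the higher side, but was 3.38, 3.90 and 6.11 normalized CPM in WT and 1055, 658 and 5.09 in CCL19-KI mice, high in the replicates with epididymal RNA. The 38 genes of xenobiotic and glutathione metabolism had 34 negative signs, 6 DEGs on the lower side and none on the higher (median -0.52, and -0.23 in the 3 libraries with least hepatocyte RNA), and the 6 were 4 without CCL19-KI replicate 2 and 11 without WT replicate 3.

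*Pmvk*, phosphomevalonate kinase of the mevalonate pathway, was 22.7, 24.8 and 18.2 normalized CPM in WT and 9.37, 8.96 and 11.4 in CCL19-KI mice (log2 fold change -1.06 ± 0.18 (SE), adjusted p = 0.00469). It was the only fall among 21 genes of cholesterol synthesis, whose median was 0.08, and *Sqle* and *Fdps*, later steps, met the DEG criteria on the higher side (log2 fold changes 0.92 and 0.83, the latter -0.0143 without CCL19-KI replicates 1 and 2). Other large falls lay outside these lists. *Zfp771*, a zinc finger gene, was 11.0, 11.6 and 10.4 normalized CPM in WT and 3.49, 4.48 and 4.84 in CCL19-KI mice (log2 fold change -1.20 ± 0.18 (SE), adjusted p = 0.00246), and *Dynlt1b*, a dynein light chain gene that has near-identical copies, was 34.3, 37.6 and 32.0 normalized CPM in WT and 17.0, 16.6 and 14.5 in CCL19-KI mice (log2 fold change -1.06 ± 0.13 (SE), adjusted p = 3.84e-04). For both genes the highest CCL19-KI value was below the lowest WT value. *Amy1*, an amylase gene, *Ppa1*, the cytosolic pyrophosphatase, *Pkdcc*, a secreted tyrosine kinase, and *Pgls*, of the pentose phosphate pathway, fell with log2 fold changes of -1.11, -1.06, -1.05 and -0.71. *Gm20458* and *Gm9923*, with at most 3.95 normalized CPM in any mouse, fell by 1.55 and 1.29 on the log2 scale.

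Of the regulators and targets of the acute phase response, 4 fell. IL-6 type cytokines act through STAT3, which with C/EBPβ and C/EBPδ drives acute phase genes. *Stat3* was 203, 188 and 167 normalized CPM in WT and 159.5, 114 and 114 in CCL19-KI mice (log2 fold change -0.54 ± 0.13 (SE), adjusted p = 0.0470). *Cebpd* was 100, 118 and 87.2 normalized CPM in WT and 54.3, 64.2 and 58.1 in CCL19-KI mice (log2 fold change -0.77 ± 0.19 (SE), adjusted p = 0.0461), and *Orm1*, an acute phase glycoprotein gene of liver and fat, was 62.6, 79.1 and 113 normalized CPM in WT and 51.5, 32.4 and 37.3 in CCL19-KI mice (log2 fold change -1.04 ± 0.20 (SE), adjusted p = 0.0120). All CCL19-KI mice were below all WT mice for the 3 genes, and *Orm1* was highest in WT replicate 3, which held the least hepatocyte RNA of the WT group. *Maff*, a small Maf factor, also fell (log2 fold change -1.18). Of the 20 genes of this list, drawn up after the falls had been seen, 4 fell and none rose by the adjusted p. By the DEG criteria 5 were lower and 1 was higher. The receptor gene *Il6ra* met the DEG criteria on the lower side (-0.61, but 0.25 in the 3 libraries with least hepatocyte RNA), while *Socs3*, the feedback inhibitor, had a log2 fold change of -0.21 and *Serpina3n* of -0.20. *Saa3*, the serum amyloid gene of adipose tissue, was 1.86, 3.80 and 4.18 normalized CPM in WT and 157, 3.99 and 5.76 in CCL19-KI mice. The groups overlapped, and CCL19-KI replicate 1 was far above the others. The median of the list was -0.33 and -0.49 without CCL19-KI replicates 1 and 2, -0.12 when WT replicate 3 was left out and -0.21 when CCL19-KI replicate 2 was, and the 4 falls were between 0 (without CCL19-KI replicate 2) and 5 (without WT replicate 3).

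Few immune cell genes met either criterion. *Ccr7*, the receptor for CCL19, was 0.207, 0.608 and 0.851 normalized CPM in WT and 1.64, 1.35 and 0.306 in CCL19-KI mice (log2 fold change 0.39, adjusted p = 0.568; exact p = 0.3). Of 17 T and NK cell genes, 23 B and plasma cell genes and 25 macrophage genes, none passed the adjusted p, and the medians were 0.02, -0.02 and -0.10. *Cd3e*, a T cell receptor subunit gene, was 0.483, 1.01 and 0.696 normalized CPM in WT and 0.635, 0.798 and 0.122 in CCL19-KI mice. *Adgre1*, which encodes the macrophage marker F4/80, was 58.3, 52.1 and 66.5 normalized CPM in WT and 98.1, 37.1 and 44.7 in CCL19-KI mice, with overlapping groups. *Gata3* was the only T cell list gene past the DEG criteria and was 0.896, 0.557 and 0.774 normalized CPM in WT and 60.7, 43.3 and 1.29 in CCL19-KI mice, high in the replicates with epididymal RNA and not in the other. Among 19 dendritic cell genes, 4 were higher in every CCL19-KI mouse and none lower, with a median of 0.23 that was 0.05 without WT replicate 1, 0.10 without CCL19-KI replicate 1 and 0.13 without WT replicate 2. *Flt3*, a receptor needed for dendritic cell development, was 0.827, 1.67 and 1.94 normalized CPM in WT and 2.70, 3.44 and 3.43 in CCL19-KI mice and met the DEG criteria (log2 fold change 0.78 ± 0.26 (SE), adjusted p = 0.131). *Clec9a* and *Batf3*, of the cross-presenting subset, also did not overlap (log2 fold changes 0.56 and 0.54) but met neither criterion, at low levels. The 15 genes of MHC class II presentation had a median of -0.05, and *Cd74*, the invariant chain, a log2 fold change of -0.18.

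Genes of neutrophils and mast cells had the highest median of the immune lists, 0.90 over 14 genes, 4 of them past the DEG criteria and all 4 higher (2 without CCL19-KI replicate 2 or WT replicate 1, and 7 without WT replicate 3). *Ltf*, the lactoferrin gene of neutrophil granules and of some epithelia, was 0.0689, 0 and 0.696 normalized CPM in WT and 2.12, 8.47 and 8.52 in CCL19-KI mice (log2 fold change 2.42, adjusted p = 0.0521). *S100a9* was 0.758, 0.304 and 0.309 normalized CPM in WT and 0.953, 2.52 and 5.45 in CCL19-KI mice, and *Fcer1a*, of mast cells and basophils, 0.483, 0.405 and 1.08 normalized CPM in WT and 2.06, 4.05 and 1.47 in CCL19-KI mice. These levels are low, and the median was 0.51 without CCL19-KI replicates 1 and 2 and -0.14 with the epididymal score as a covariate.

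Genes that the study followed in eWAT were at low levels, apart from *Gpnmb*. *Spp1*, the osteopontin gene, was 0.690, 0.709 and 0.309 normalized CPM in WT and 1.96, 2.82 and 2.63 in CCL19-KI mice. Its groups did not overlap, but its adjusted p was 0.600 (limma; exact permutation p = 0.1). Adjusted p values come from the fit that pools the spread of all ligatured libraries, those of HFD-fed mice included. The 0.600 therefore does not measure the spread among the ND-fed mice alone, and the exact p is the smallest that these group sizes allow. *Tnf* was 0, 0.203 and 0.155 normalized CPM in WT and 0.212, 0.614 and 0.368 in CCL19-KI mice, which is at most 10 reads in a library (exact p = 0.1), and *Ccl2* was 0.138, 0.963 and 4.57 normalized CPM in WT and 3.76, 1.41 and 1.78 in CCL19-KI mice (exact p = 0.5). *Gpnmb* was 28.9, 28.0 and 33.3 normalized CPM in WT and 29.3, 33.2 and 33.2 in CCL19-KI mice, and its groups overlapped. *Atp6v0d2*, the gene of a proton pump subunit, was 1.31, 1.62 and 1.70 normalized CPM in WT and 2.38, 1.84 and 2.63 in CCL19-KI mice, with no overlap (log2 fold change 0.36, adjusted p = 0.887). *Il1b*, *Il6* and *Tnfsf11* were below the filter and not tested. None of the 24 chemokines other than *Ccl19* passed the adjusted p, and *Cxcl14* and *Cx3cl1* met the DEG criteria on the higher side (log2 fold changes 1.08 and 0.90) and *Ccl11*, the eotaxin gene, on the lower side (-0.91). These are 8.33% and 4.17% of the list, near the shares over all genes (6.67% and 2.52%). Of 36 interferon-stimulated genes, 25 were negative in sign, none passed the adjusted p and *Ifi27l2a* alone met the DEG criteria (log2 fold change -0.95; median -0.18).

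Vessel and stromal genes held few calls. *Notch3*, the Notch receptor of mural cells around arteries, was 3.86, 5.02 and 3.95 normalized CPM in WT and 12.7, 9.27 and 12.7 in CCL19-KI mice (log2 fold change 1.24 ± 0.19 (SE), adjusted p = 0.00293). Every CCL19-KI mouse exceeded the WT range, replicate 3 included. *Rgs5* and *Kcnj8*, pericyte genes, met the DEG criteria (log2 fold changes 0.59 and 0.74), and 5 of 12 genes of this list were higher in all CCL19-KI mice. On the endothelial list *Vegfa*, *Kdr*, *Gpihbp1*, which anchors lipoprotein lipase in capillaries, and *Rgcc* met the DEG criteria on the lower side, with log2 fold changes of -1.11, -0.59, -0.80 and -0.71, and *Sox18* on the higher side (0.69), while *Pecam1* and *Cdh5* had 0.18 and -0.04. Of 30 progenitor and fibroblast genes, *Pcsk6*, a proprotein convertase, fell (log2 fold change -0.68). *Mest*, an imprinted gene tied to adipocyte enlargement, was 28.1, 51.3 and 38.9 normalized CPM in WT and 73.7, 129 and 306 in CCL19-KI mice and met the DEG criteria (log2 fold change 1.87 ± 0.52 (SE), adjusted p = 0.0728). Its highest value was in CCL19-KI replicate 3. *Dlk1*, an imprinted inhibitor of adipogenesis, had a log2 fold change of 0.88 past the DEG criteria, and *Pdgfra*, the general progenitor marker, of 0.10. Collagens had a median of -0.00497 over 26 genes, and *Col1a1* had a log2 fold change of -0.09.

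Genes of neurons and synapses contributed 19 rises. All 49 tested genes of this list, drawn up after the rises had been seen, were positive in sign (median 1.95), 33 met the DEG criteria and the 19 passed the adjusted p. *Rims1*, a scaffold of the presynaptic active zone, was 0, 0.0507 and 0 normalized CPM in WT and 22.7, 14.5 and 17.6 in CCL19-KI mice (log2 fold change 4.22 ± 0.28 (SE), adjusted p = 1.76e-06). *Rbfox3*, the gene of the neuronal marker NeuN, was 0.0689, 0.0507 and 0.309 normalized CPM in WT and 27.5, 15.7 and 9.25 in CCL19-KI mice (log2 fold change 3.90 ± 0.35 (SE), adjusted p = 2.36e-05). *Dlgap1*, of the postsynaptic density, was 0.207, 0.152 and 0.232 normalized CPM in WT and 8.26, 9.70 and 19.6 in CCL19-KI mice (log2 fold change 3.41 ± 0.32 (SE), adjusted p = 4.14e-05). *Dpp6*, a potassium channel subunit, *Kif5c*, a neuronal kinesin, and *Lsamp*, an adhesion protein of neurons, rose as well (log2 fold changes 4.51, 4.27 and 3.28). For these genes all CCL19-KI mice were above all WT mice. Unlike the epididymal genes, the list was highest in replicate 3, with a sum of 1030 normalized CPM against 441 and 615 in replicates 1 and 2 and 155 to 179 in WT mice. Without replicates 1 and 2 its median was 2.65 over the 35 genes then tested, and without replicate 3 it was 0.99, with 7 of 38 genes negative in sign. Among genes with a mean of at least 5 normalized CPM it was 0.39. The 19 rises were 11 without CCL19-KI replicate 2, 14 without replicate 3 and 29 without replicate 1. The neuron and glia list, not drawn up from these rises, summed to 582, 537 and 557 normalized CPM in WT and 400, 510 and 695 in CCL19-KI mice. Replicates 1 and 2 were thus below every WT mouse on that measure, but most of each sum was *Scn7a*, given below. Mean log2(normalized CPM + 1) of the list was 2.13, 2.24 and 2.08 in WT and 2.39, 3.56 and 4.13 in CCL19-KI mice. By that measure every CCL19-KI mouse was above every WT mouse, and the median log2 fold change was 1.04. Of its 13 tested genes, 9 were positive and 4 negative in sign. The DEG criteria were met by 8 on the higher side (61.5%, against 6.67% of all genes) and 0 on the lower. *Omp*, *Snap25* and *Syt1* were among the 8, whereas *Stmn2*, *Prph* and *Scn7a*, of peripheral nerve, had log2 fold changes of -0.63, -0.36 and -0.49. *Scn7a* was 433, 384 and 403 normalized CPM in WT and 253, 264 and 359 in CCL19-KI mice. Skeletal muscle genes rose too, 8 of 17 by the adjusted p, led by *Ckm*, with no reads in WT mice and at least 264-fold higher values in CCL19-KI mice (118, 27.4 and 10.4 normalized CPM). The count of 8 was 4 without WT replicate 1 and 5 without WT replicate 2. Which cells these RNAs came from was not tested.

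Other rises were largest in CCL19-KI replicates 1 and 2, which also held most smooth muscle and epididymal RNA, and the part of that RNA in them was not tested. *Pcp4*, the largest rise past the adjusted p, was 0, 0.152 and 0 normalized CPM in WT and 225, 206 and 3.43 in CCL19-KI mice (log2 fold change 5.82 ± 1.21 (SE), adjusted p = 0.0204), and *Pax8*, a factor of the kidney and genital tract, was 0.0689, 0.253 and 0.387 normalized CPM in WT and 41.7, 30.6 and 2.33 in CCL19-KI mice (log2 fold change 3.75 ± 0.91 (SE), adjusted p = 0.0464). Both were much lower in CCL19-KI replicate 3 than in the other CCL19-KI mice. *Pcp4l1*, *Prom1*, *Pou3f3* and *Mybpc1* were also lowest in that replicate among the CCL19-KI mice ( 11.9, 10.7, 3.31 and 1.35 normalized CPM). The posterior genes *Hoxb8* and *Hoxb9* rose (log2 fold changes 2.33 and 1.97), and *Hoxc8* and *Hoxa7* were lower in all CCL19-KI mice without meeting the DEG criteria (-0.55 and -0.46). The median of the 30 HOX and positional genes was 0.47 and 0.16 without replicates 1 and 2. Of this list 3 genes rose, and none passed the adjusted p without CCL19-KI replicate 1 or 2 or WT replicate 1 or 2. *Rspo3*, a Wnt amplifier, was 1.24, 1.06 and 1.86 normalized CPM in WT and 14.0, 13.8 and 4.11 in CCL19-KI mice and rose (log2 fold change 2.14). *Id4*, a BMP target, also rose (log2 fold change 1.29), at similar levels in all CCL19-KI mice (3.24, 1.98 and 2.71 normalized CPM in WT and 7.15, 9.15 and 7.29 in CCL19-KI mice). *Hist1h4m*, a histone H4 gene, had no reads in WT mice and 27.3, 20.3 and 14.2 normalized CPM in CCL19-KI mice, at least 105-fold higher. *Hist1h4m* was at 0 to 0.568 normalized CPM in all WT libraries of the series except the library labelled WT, ND, no ligature, replicate 2.

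The genotype effect was then set beside that under other diets and without ligature, which share no library with this comparison. That unligatured WT library goes against its label, with 19.2 normalized CPM of *Ccl19* and 41.9 of *Gm2564*, and the ND comparison without ligature is given with and without it. *Adipoq* was lower in CCL19-KI mice in each condition, with log2 fold changes of -1.97 and -1.43 under a 40% and a 60% HFD with ligature and -2.04 without ligature (-2.62 without that library). The adipocyte identity genes had medians of 0.02 and 0.19 under the HFDs and -0.88 (-1.0) under ND without ligature. Branched-chain catabolism had -0.06, 0.04 and 0.03 (-0.05). Fatty acid oxidation had 0.22, 0.13 and 0.64 (0.46). Without ligature, hepatocyte RNA was high in the CCL19-KI mice, and the median of that list was 7.84. These medians were not tested against each other. *Dynlt1b* was lower in each condition as well (-1.24, -0.62 and -1.34, and -1.88 without the library). Of the 63 falls, 45 kept their direction under a 40% HFD, 26 under a 60% HFD and 39 under ND without ligature (46 when that library was left out). With an unadjusted p of at most 0.05 as well, they were 7, 3 and 12 (19). Of the 307 rises, 98, 246 and 28 kept their direction (168 of the 303 tested when that library was left out). With such a p these were 7, 25 and 2 (17). No share over all genes is given beside these counts, so agreement in sign alone is a description.

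Tests of the difference itself called 79 genes between ND and the 40% HFD (0.474%), 74 with a higher and 5 with a lower log2 fold change under ND, and 39 between ND and the 60% HFD (0.234%), 35 higher and 4 lower. In a fit of all 36 libraries the counts were 1 and 0 (limma, with 1079 genes at an unadjusted p below 0.05 for the latter). That fit includes the unligatured WT library above. It also includes the library labelled CCL19-KI, 60% HFD, no ligature, replicate 3, which goes against its label with 0.687 normalized CPM of *Ccl19* and 0 of *Gm2564*. In the fit of the ligatured libraries the counts were 21 and 7 without CCL19-KI replicate 2 and 284 and 215 without replicate 3. The genes with the larger effect under ND included *Rims1*, *Dpp6*, *Rbfox3*, *Lsamp* and *Dlgap1* in both tests. Under the HFDs *Rbfox3* had log2 fold changes of -0.35 and 0.29. On the lower side were *Zfp771* and *Pcsk6* against the 40% HFD (0.70 and 0.39 there), and *Pmvk* against the 60% HFD (0.34 there). *Gpam*, *Mrap*, *Etfa*, *Pccb*, *Iscu* and *Stat3* did not pass either test, with log2 fold changes under a 40% HFD of -0.02, -0.32, -0.33, -0.02, -0.07 and 0.07. With against without ligature, 12 genes passed (0.072%). When the unligatured WT library that goes against its label was left out, 7 genes passed, 5 of them among the 12. With the replicate number as a block none passed in limma, although 3819 genes had an unadjusted p below 0.05. Of the 12, *Ltf*, *Gnao1*, *Fat3*, *Herc3* and *Rgs7bp* had the higher genotype effect with ligature, and *Ahr*, the aryl hydrocarbon receptor, *Epha2*, *Rhou*, *Ablim3*, *Eps8l2*, *Gm12840* and *Gm9973* the lower. These names were chosen after their values were seen, and 1 unligatured ND library goes against its label. For *Ltf* the log2 fold change was 2.42 with and -2.95 without ligature, -2.51 when that library was left out.

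**Figure D5:**
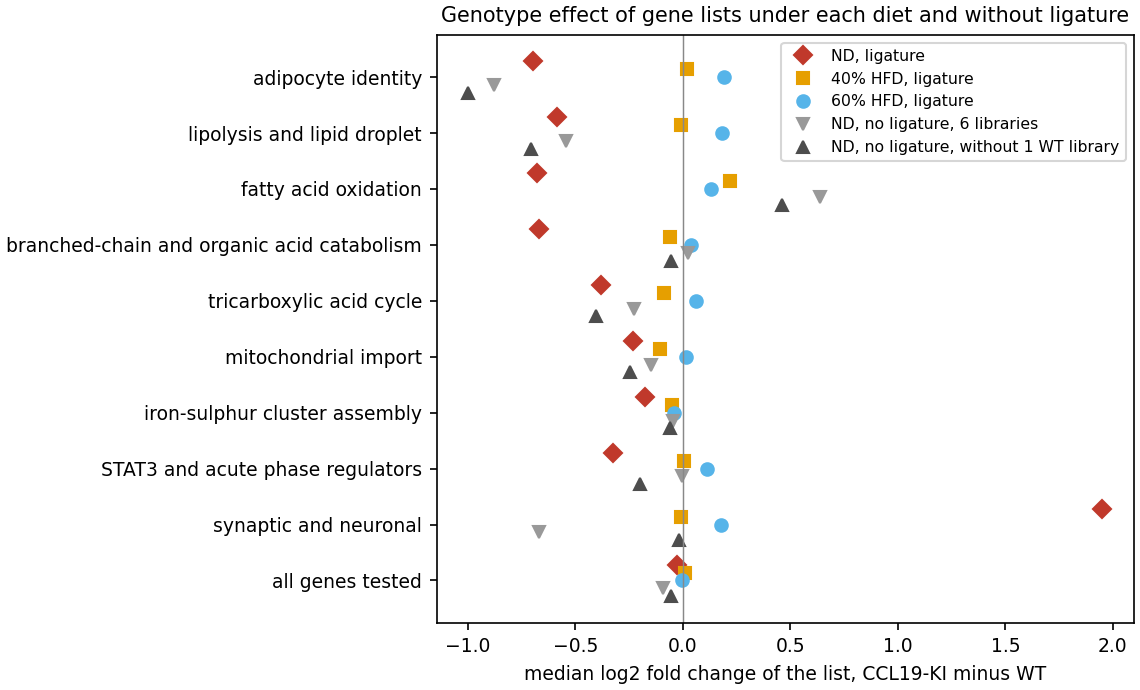
Median log2 fold change (CCL19-KI minus WT) of 9 lists and of all genes tested, in ND-fed mice with ligature (red diamonds), under a 40% or 60% HFD with ligature (orange squares, blue circles) and under ND without ligature, with and without the WT library that goes against its label (grey and black triangles). Adipocyte identity is at -0.70 under ND with ligature, near 0.02 and 0.19 under the HFDs and at -0.88 and -1.0 under ND without ligature, and the synaptic list is at 1.95 in the first and between -0.67 and 0.18 in the others.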

How the data were processed

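Total RNA of eWAT was sequenced in 36 libraries, from directional libraries made after depletion of ribosomal RNA. According to the submitters' notes and the study's methods, the authors trimmed reads with Trimmomatic 0.38, aligned them with Bowtie2, quantified genes with RSEM 1.3.0 and normalized with edgeR. The methods name mm10 and the submitters' notes GRCm39, so the build remains unsettled, and coordinates are those of RefSeq in GRCm38.p6. The deposited table holds signal values, the authors' edgeR-normalized CPM. All values were whole multiples of a library's smallest step (100% within 0.01), so reads were recovered. Of 24750 gene IDs, 24634 matched GENCODE M21, and 116 have no symbol.

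Values of log2(normalized CPM + 1) were fitted with limma 3.58.1 (trend) in R 4.3.3 over the 18 ligatured libraries, for genes at 1 or more in at least 3 of them, with Benjamini-Hochberg adjustment over all genes tested. Fold changes are on this scale, which understates changes of low genes. The difference between ligature states was tested in the 12 ND libraries. Single values were compared with exact two-sided permutation tests. Libraries were grouped by the labels, and p-values measure the spread between these libraries. Pairs of replicates differed by more than sampling noise (chi-square per degree of freedom 26.4 to 90.1). The deviations of CCL19-KI and WT libraries from their group means correlated with r = 0.291, -0.327 and 0.274 for the same replicate number. For different numbers r ranged from -0.429 to 0.394. The same number did not give the higher correlation throughout, and the libraries were not paired. Intervals and limits of 3 reads cover counting error only.

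Members and lists were chosen with earlier results of these data known. The genes named are *Ccl19*, its copies, *Ccr7* and *Adipoq*; for each list, up to 6 members past the adjusted p with the largest changes or, with fewer than 2, the 4 of highest level; the 15 largest rises and 15 largest falls outside lists of other tissues whose groups do not overlap and that CCL19-KI replicate 3 also shows; the 5 largest rises of all; and genes the study named in eWAT. Further list members were named after their values were seen, and for some lists members given by the rule are only counted. The fits were repeated with a pseudocount of 0.1 or 5, without a filter, with a mean of at least 5, quantile and median-of-ratios scaling, edgeR 4.0.16 and DESeq2 1.42.0 on the recovered reads, other sets of libraries, sample weights, scores of other tissues as covariates, the replicate number as a block, a ratio of 2 in the DEG criteria and libraries left out. The analysis was tested on simulated data. Some single genes are not reported here.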

Additional observations from a re-analysis of the deposited data

Results flagged for a closer look

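The genotype effect in ND-fed, ligatured mice differed from that in other conditions, by a test of the difference itself, in 79 genes against the 40% HFD, in 39 against the 60% HFD and in 12 against ND without ligature (limma, adjusted p below 0.05). The count of 12 was 7 without the unligatured WT library that goes against its label, with 5 genes shared. In a fit of all 36 libraries the first 2 counts were 1 and 0, and the third was 1355. That fit includes both unligatured libraries that go against their labels, the WT library under ND and a CCL19-KI library under the 60% HFD. Among the genes named by rule, the log2 fold change under ND exceeded that under the 40% HFD by 5.37 for *Dpp6*, 4.95 for *Kif5c*, 4.44 for *Rims1*, 4.25 for *Rbfox3*, 3.76 for *Ksr2*, 3.49 for *Dlgap1*, 3.68 for *Lsamp* and 4.99 for *Ckm*. For *Gm20458* and *Zfp771* the difference was -2.14 and -1.90. Against the 60% HFD the difference was 4.50 for *Dpp6*, 3.97 for *Rims1*, 3.61 for *Rbfox3*, 3.27 for *Ksr2*, 3.42 for *Dlgap1* and 2.68 for *Lsamp*, and -1.40 for *Pmvk*. Most of these names with a positive difference are neuronal genes. They had been picked for large rises under ND in this same comparison, and the 79 and 39 genes were not tallied by type. The cell of origin of the neuronal genes was not tested.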

How the results depend on the processing

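The 370 genes with an adjusted p below 0.05 became 1114 with DESeq2, 6135 with sample quality weights, 238 with quantile normalization, 184 in a fit of all 36 libraries, 48 in a fit of the 6 libraries alone, 53 among genes with a mean of at least 5 and 40 with the epididymal score as a covariate. They were 233 without CCL19-KI replicates 1 and 2, and, in fits chosen after seeing the data, 42 without the 2 WT libraries with most hepatocyte RNA and 80 in the 3 libraries with least of it. With single mice left out they ranged from 84 to 758. The 1530 DEGs became 891 with the epididymal score, 725 with a mean of at least 5, 901 with a pseudocount of 5, 3390 with sample weights, 961 without the 2 WT libraries, 789 with a ratio of 2, and 981 (without CCL19-KI replicate 2) to 2136 with single mice left out. Calls on the higher side made up 83% of the 370, but 43% with sample weights, 72% with a mean of at least 5, 53% when WT replicate 3 and 68% when CCL19-KI replicate 1 was left out. The difference between diets was called in 1 gene (40% HFD) and 0 genes (60% HFD, with 1079 at an unadjusted p below 0.05) in the fit of all 36 libraries, and in 21 to 284 and 7 to 215 genes with single libraries left out. The difference between ligature states was called in 1355 genes in the fit of all 36 libraries, 5 with a pseudocount of 5 and 0 to 2912 with single libraries left out. The fit of all 36 libraries includes the unligatured libraries that go against their labels.

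With the replicate number as a block, 321 genes passed the adjusted p, 1551 were DEGs, and 78, 29 and 0 genes differed against the 40% HFD, the 60% HFD and ND without ligature. Only 1 of the 3 CCL19-KI libraries correlated best with the WT library of its own number. Among named genes the sign turned for *Fasn* (-1.61) and *Fdps* (-0.19), and to positive for *Il6ra* (0.25), *Lpin1* (0.00263) and *Mc5r* (0.41), in the 3 libraries with least hepatocyte RNA. It turned for *Fasn* (-1.53), *Il6ra* (0.20) and *Mc5r* (0.18) without the 2 WT libraries, and for *Fdps* (-0.0143) and *Cox7a1* (-0.11) without CCL19-KI replicates 1 and 2. With the epididymal score it turned for *Cox7a1* (-0.22), *Fcer1a* (-0.30), *Pax8* (-0.15), *Ptgs2* (-1.21) and *Spink11* (-0.36), and with the smooth muscle score for *Cox7a1* (-0.27), *Gata3* (-0.13), *Ptgs2* (-1.27) and *Spink11* (-0.26). The causes were not tested. Genes of a few reads, among them *Tnf* and *Ccr7*, are limited by depth.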

Other observations

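Other gene groups of the ND-fed, ligatured mice are given here as values only. Of 28 proliferation genes, 25 had a positive log2 fold change and the median was 0.30. *Mcm5*, a subunit of the replicative helicase, was 1.72, 2.18 and 4.10 normalized CPM in WT and 6.56, 6.32 and 6.07 in CCL19-KI mice and rose (log2 fold change 1.05 ± 0.22 (SE), adjusted p = 0.0191), as the only gene of that list past either criterion. *Mki67*, the gene of the cycle marker Ki-67, was 6.89, 10.1 and 13.1 normalized CPM in WT and 22.6, 12.3 and 16.2 in CCL19-KI mice, with overlapping groups. The median of the list was 0.18 without CCL19-KI replicate 1 or WT replicate 1 and -0.03 in the 3 libraries with least hepatocyte RNA. Among 16 glucocorticoid targets 15 were negative in sign (median -0.47), and *Klf15* and *Klf9*, transcription factors induced by glucocorticoids, met the DEG criteria (log2 fold changes -0.83 and -0.69), but the median was 0.31 in the 3 libraries with least hepatocyte RNA. Without WT replicate 1 it was -0.24 with no DEG on the lower side, and without WT replicate 3 it was -0.83 with 9. *Nr1d1*, the clock repressor REV-ERBα, was 166, 89.6 and 119 normalized CPM in WT and 125, 29.6 and 41.1 in CCL19-KI mice and met the DEG criteria together with *Bhlhe41*, both lower, out of 19 clock genes (0 without CCL19-KI replicate 2 or WT replicate 1, and 5 without WT replicate 3). None of 25 genes of the unfolded protein response and none of 24 complement genes met either criterion, with medians of -0.23 and -0.21.

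All 20 mesothelial genes were negative in sign (median -0.34), and *Igfbp5* alone met the DEG criteria (log2 fold change -0.87). Of 16 genes of secretory and ciliated epithelium, 6 rose (median 1.26). That count was 0 without CCL19-KI replicate 2 and 3 without WT replicate 1 or 2, and it was 0 with the epididymal score as a covariate, where the median was 0.57. Among genes with a mean of at least 5 normalized CPM the median was -0.04. *Epcam*, the epithelial adhesion molecule, was 0.138, 0.456 and 0.774 normalized CPM in WT and 21.1, 15.5 and 2.70 in CCL19-KI mice (log2 fold change 2.95 ± 0.61 (SE), adjusted p = 0.0195). *Hist2h2be*, a histone H2B gene, rose along with *Hist1h4m* out of 37 histone genes (log2 fold change 1.23), and the median of the histone list was 0.03. Of 13 thermogenic genes, *Kcnk3*, a potassium channel gene, met the DEG criteria on the lower side (log2 fold change -1.47) and *Dio2*, *Cox7a1* and *Esrrg* on the higher side (0.93, 0.81 and 1.16), the 3 being 1 without CCL19-KI replicate 2 or 3. The lipid-associated macrophage list had 4 DEGs, all lower, namely *Plin2*, *Lpl*, *Fabp4* and *Fabp5*, which adipocytes also express (1 without CCL19-KI replicate 2 and 2 without WT replicate 1), while *Trem2*, the receptor that marks these macrophages, was 12.8, 10.9 and 14.8 normalized CPM in WT and 17.0, 16.7 and 9.99 in CCL19-KI mice, with overlapping groups.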
